A study of Homo sapiens with 34 samples.

Results

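The genes described here are the 57 ligands, receptors, SMAD proteins, antagonists and direct targets of the transforming growth factor beta (TGF-beta), bone morphogenetic protein (BMP) and activin pathways that were found by gene name among the 20255 genes of the expression table. They are 12 BMP-type ligands, 12 ligands of the TGF-beta, activin, nodal and other GDF groups, 12 receptors, 8 SMADs, 9 antagonists or modulators and the 4 ID genes. The rule that picked them reads gene names only, but it was drawn up with earlier results of these data known. All samples came from H1, an established line of human embryonic stem cells, and carry no transgene or engineered allele by their labels. There were 12 populations, namely untreated undifferentiated H1 cells (1 sample), day 0 embryoid bodies (EBs), total cells of days 2 and 4 that were not sorted, and cells separated by CD43 (sialophorin, carried by developing blood cells) on days 6, 9, 12 and 16. On day 16 the populations were CD43-CD45- and CD43+/CD45+, named day 16 CD43- and CD43+ cells here. Day and sort gate therefore changed together between day 12 and day 16 and cannot be told apart there. Each population from day 0 on had 3 replicates, which the methods describe as independent biological ones. The labels give BMP4 with hVEGF as the treatment of the day 0 EBs and hVEGF from day 2 on. The methods instead add BMP4 and VEGF when the EBs are set to attach, the start of day 0, and keep both until day 2. By the methods, added BMP4 thus acted between day 0 and day 2, and the labels and methods differ on whether the day 0 EBs had received it.

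Ligands of this superfamily bind pairs of type I and type II receptor kinases on the cell surface, which phosphorylate SMAD proteins that then enter the nucleus with SMAD4. BMP-type ligands act mainly through SMAD1, SMAD5 and SMAD9, and TGF-beta, activin and nodal through SMAD2 and SMAD3. Secreted antagonists such as noggin and follistatin hold ligands back, SMAD6 and SMAD7 inhibit the signal inside the cell, and the ID genes are direct targets of BMP signalling. In the embryo, nodal and BMP4 are needed for the formation of mesoderm, from which endothelium and blood arise.

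The values are GC-normalized tag counts in whole numbers, and every sample holds the same set of values in another order, so a value is close to the rank of a gene within its sample. Sequencing depth is therefore unknown, error is judged from the replicates alone, and levels are not compared between genes since the values are not per length. Differences are given as log2 fold changes of value + 1, a scale that shrinks the changes of genes with few tags. A gene was called when its Benjamini-Hochberg adjusted p over the 19788 genes tested with limma was below 0.05 and its fold change above 4, and all 57 pathway genes passed the filter for testing. SPN, the gene of CD43, followed the sort on every day, with log2 fold changes from 4.14 on day 16 to 8.63 on day 9, and PTPRC, the gene of CD45, differed by 8.87 on day 16 but by 0.86 on day 6 (adjusted p = 0.459, limma). The sum of 7 mesenchymal marker genes was 58724 to 155056 in day 6 CD43+ cells against 187087 to 224806 in day 6 CD43- cells, and it ran from 4131 to 45648 in the CD43+ cells of days 9 to 16 against 216536 to 294255 in the CD43- cells of those days. The endothelial sum of 6 genes was uneven among the day 6 CD43- replicates, at 112355, 84322 and 35597. Blood transcripts were also present in some CD43- samples. In the day 12 CD43- replicates PTPRC stood at 4, 197 and 371 and the sum of 5 macrophage genes at 266, 4079 and 5056. On day 6 the macrophage sum was 3467, 2136 and 565 in CD43- and 1209, 801 and 931 in CD43+ cells. In bulk samples like these, fewer cells of a type and less RNA per cell cannot be told apart, and the part of cell mixture in the differences that follow was not tested.

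**Figure D1:**
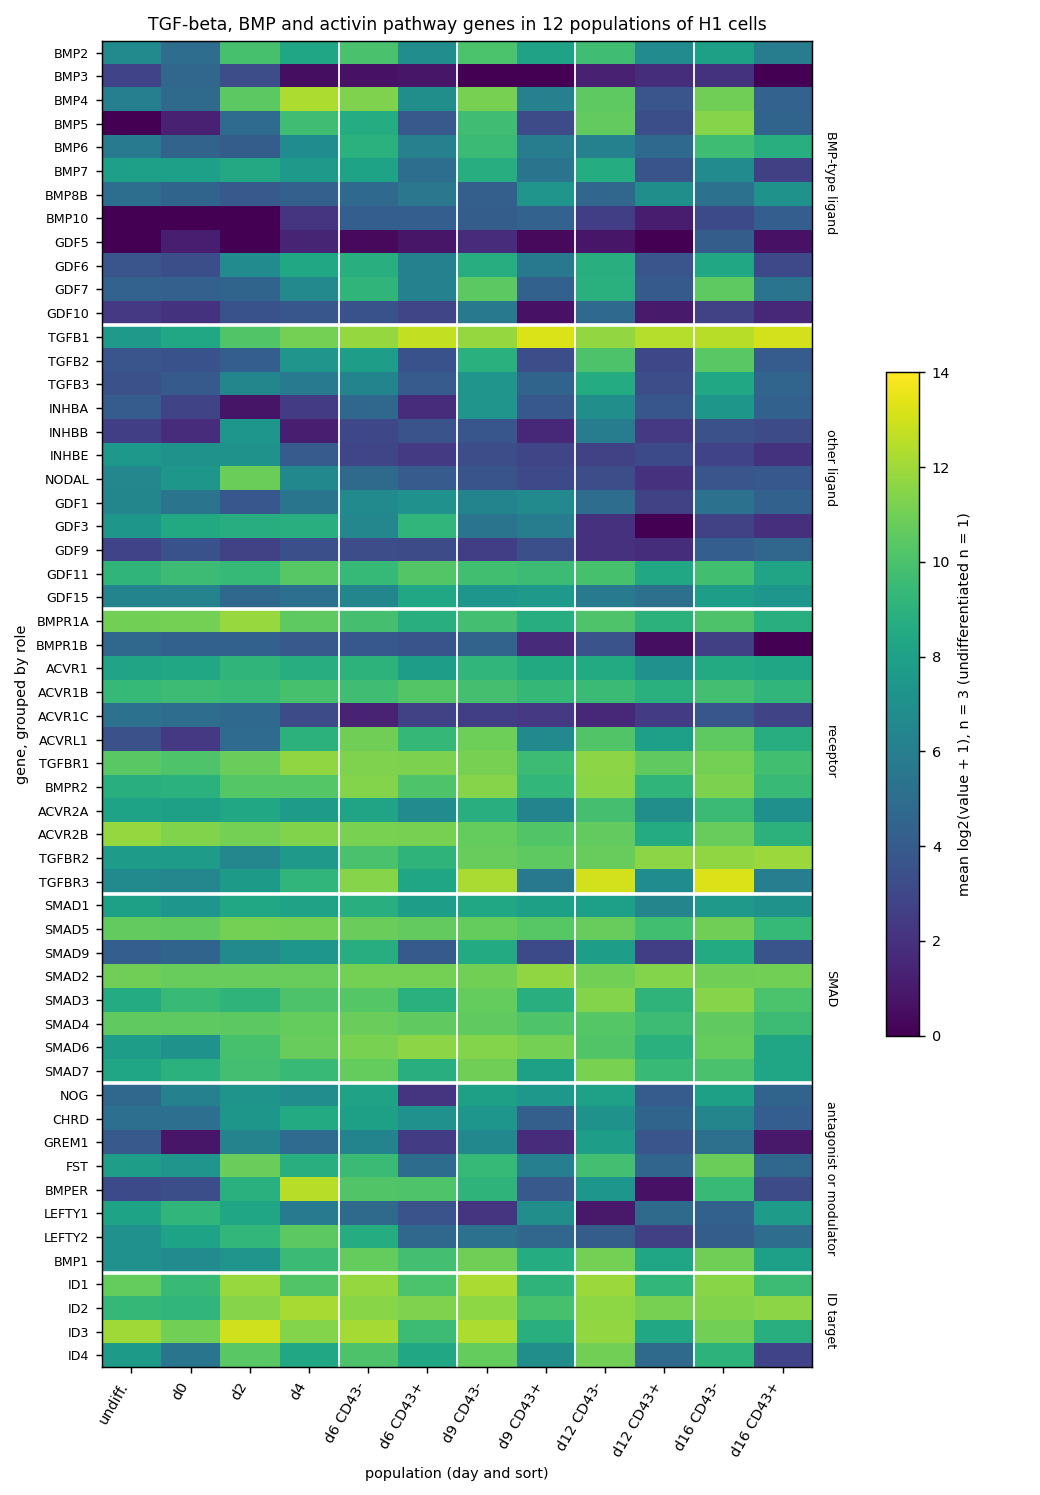
Mean log2(value + 1) of 56 of the 57 pathway genes (rows, grouped by role) in the 12 populations (columns, 3 replicates each, 1 for undifferentiated cells). Colours are read along a row, since values are not per length; from day 6 the rows of BMP4, BMP5, TGFB2, TGFBR3, SMAD9 and FST alternate between high CD43- and low CD43+ cells, whereas SMAD2 and SMAD4 stay near one colour.

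**Figure D2:**
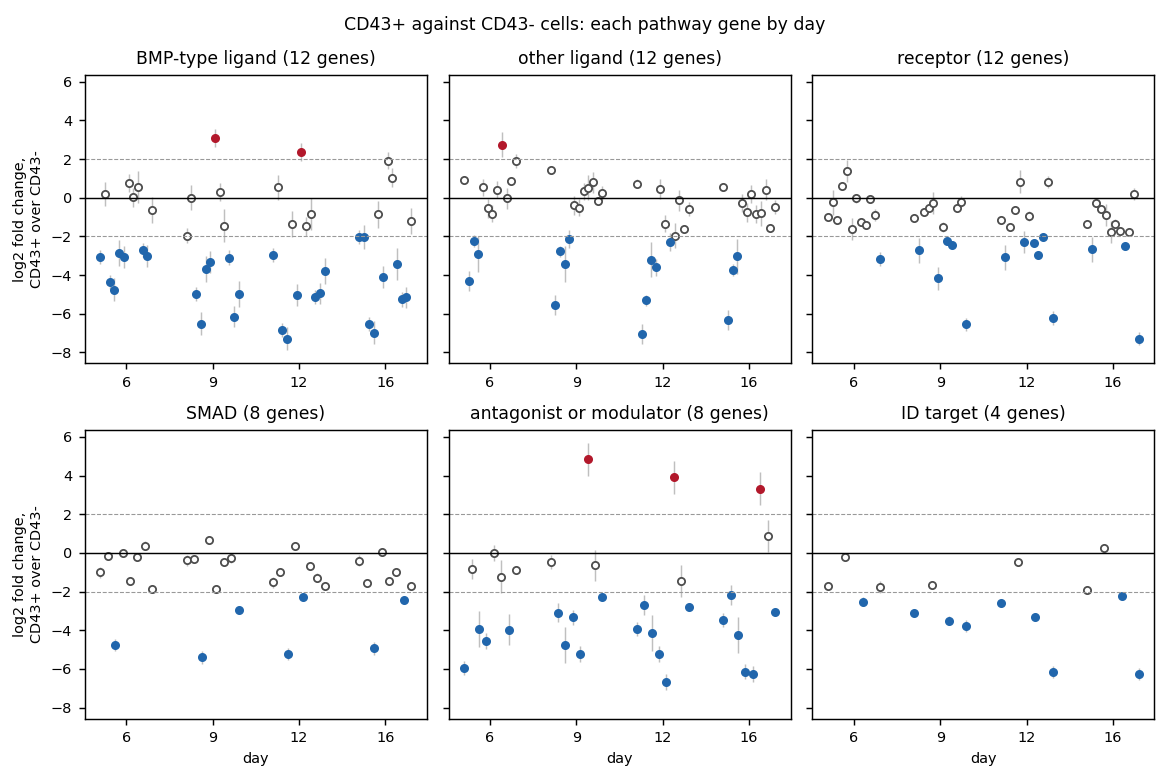
Log2 fold change of CD43+ over CD43- cells (vertical axis, bars are standard errors) for 56 of the 57 pathway genes at days 6, 9, 12 and 16, in 6 panels by role. Filled blue points are genes called lower in CD43+ cells, filled red points genes called higher and open points genes not called; dashed lines mark a 4-fold change. In these panels 102 points are filled, and 6 of them are red.

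Between CD43+ and CD43- cells, most of the pathway genes that differed were lower in the CD43+ cells. On day 6, 19 of 57 were called (33.3%, against 12.5% of all genes tested), 18 of them lower and 1 higher (against 7.85% and 4.68% of all genes). On day 9 the count was 29 (50.9%, against 21.5%), with 27 lower and 2 higher (against 12.8% and 8.65%). On day 12 it was 32 (56.1%, against 26.2%), with 30 lower and 2 higher (against 14.4% and 11.8%). On day 16 it was 26 (45.6%, against 25.8%), with 25 lower and 1 higher (against 13.6% and 12.2%). The median log2 fold change of the 57 genes was -1.0, -1.88, -2.29 and -1.74 on the 4 days, while the median over all genes tested was 0.14, 0.24, 0.22 and 0.14. Replicates of the sorted groups did not overlap for 56.8%, 70.9%, 61.6% and 73.0% of all genes tested on the 4 days. A lack of overlap, as given for single genes below, was therefore common among all genes. Where 4 log2 fold changes are given for a gene below, they are those of days 6, 9, 12 and 16 in that order.

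Of the 57 genes, 14 were called lower in CD43+ cells on all 4 days (against 4.62% of all genes tested) and 36 on at least 1 day (against 20.2%). In the other direction, 3 were called higher on at least 1 day, namely GDF3, BMP8B and LEFTY1 (against 18.0%), and 18 were called on no day (against 62.5%). By role, the BMP-type ligands gave 7 or 8 lower calls of 12 on each day, the antagonists and modulators 5 to 7 of 9, the receptors between 1 and 6 of 12, and the SMADs 1 or 2 of 8. The ligands of the TGF-beta, activin, nodal and other GDF groups gave 3 to 5 of 12, and the ID genes 1 to 3 of 4. With a pseudocount of 10 in place of 1, 16 of the 106 calls were lost. They were those of TGFB3 and INHBA on day 6, BMPR1B on its 3 called days, INHBB on day 9, LEFTY1, BMP8B, GDF1, GDF10 and ACVR2B on day 12, and BMP2, BMP3, GDF5, GREM1 and CHRD on day 16. The call of GDF1 on day 12 was also lost when only the compared populations were fitted (-2.30, adjusted p = 0.0528).

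BMP4, the ligand that was also supplied at the start of the cultures, was high in CD43- cells at every time. It stood at 1870, 2588 and 3386 on day 6, at 2387, 2246 and 2033 on day 9, at 1548, 1755 and 1168 on day 12 and at 2008, 1927 and 1974 on day 16 in the CD43- replicates. In CD43+ cells BMP4 stood at 112, 118 and 136 on day 6, at 64, 75 and 66 on day 9, at 24, 4 and 16 on day 12 and at 32, 22 and 12 on day 16. No CD43+ replicate came near a CD43- one on any day, and the log2 fold changes were -4.37, -5.00, -6.84 and -6.52 (standard error 0.37, highest adjusted p = 2.39e-10, limma). BMP5, a relative of BMP6 and BMP7, stood at 290, 295 and 754 on day 6, at 484, 1328 and 902 on day 9, at 1402, 2236 and 1323 on day 12 and at 3037, 2809 and 2640 on day 16 in CD43- cells. In CD43+ cells BMP5 stood at 6, 14 and 30 on day 6, at 4, 8 and 16 on day 9, at 6, 16 and 8 on day 12 and at 30, 32 and 10 on day 16. The groups were apart on all days, with log2 fold changes of -4.76, -6.51, -7.30 and -6.98 (standard error 0.59, highest adjusted p = 2.11e-07), and the CD43- values of day 16 lay above all those of day 6.

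BMP7, a ligand with wide roles in kidney and skeleton, stood at 266, 423 and 197 on day 6, at 577, 210 and 627 on day 9, at 994, 240 and 296 on day 12 and at 132, 58 and 152 on day 16 in CD43- cells. In CD43+ cells BMP7 stood at 16, 68 and 32 on day 6, at 40, 44 and 41 on day 9, at 11, 14 and 10 on day 12 and at 1, 10 and 10 on day 16. The sorted groups did not overlap on any day, although the CD43- replicates of day 12 spread widely, and the log2 fold changes were -3.06, -3.32, -5.04 and -4.09 (standard error 0.56, highest adjusted p = 5.54e-05). GDF6, a BMP-type ligand of skeletal joints, stood at 342, 642 and 442 on day 6, at 364, 367 and 580 on day 9, at 653, 268 and 523 on day 12 and at 307, 344 and 311 on day 16 in CD43- cells. In CD43+ cells GDF6 stood at 75, 62 and 73 on day 6, at 42, 48 and 58 on day 9, at 16, 5 and 20 on day 12 and at 4, 10 and 10 on day 16. They lay below every CD43- replicate of the same day and were lowest on days 12 and 16, with log2 fold changes of -2.70, -3.10, -5.13 and -5.25 (standard error 0.38, highest adjusted p = 1.34e-06). GDF7, its close relative, stood at 470, 446 and 896 on day 6, at 2326, 704 and 1810 on day 9, at 460, 682 and 355 on day 12 and at 1534, 1586 and 1307 on day 16 in CD43- cells. In CD43+ cells GDF7 stood at 66, 72 and 73 on day 6, at 9, 8 and 90 on day 9, at 16, 12 and 16 on day 12 and at 25, 52 and 51 on day 16. The day 9 CD43+ cells included 1 replicate about 10 times the others, still under all CD43- replicates, and the log2 fold changes were -3.01, -6.16, -4.95 and -5.15 (standard error 0.55, highest adjusted p = 5.35e-05). That library, replicate 3, also had the highest mesenchymal sum of the day 9 CD43+ cells (21749, against 4131 and 8363). Of the 14 genes called lower on all 4 days, 6 were highest in it, and its part in these values was not tested.

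BMP2, the closest relative of BMP4, was called on days 6, 12 and 16. It stood at 786, 1020 and 1222 on day 6, at 1134, 867 and 1197 on day 9, at 700, 530 and 1536 on day 12 and at 276, 193 and 288 on day 16 in CD43- cells. In CD43+ cells BMP2 stood at 97, 80 and 206 on day 6, at 268, 316 and 234 on day 9, at 138, 98 and 88 on day 12 and at 40, 42 and 127 on day 16. The groups did not overlap, but the log2 fold change of day 9 (-1.96) fell short of a 4-fold difference and that of day 16 (-2.03) was at the threshold, which it missed when any of 4 of the 6 day 16 libraries was left out (-1.96 without replicate 1 and -1.93 without replicate 3 of the CD43- cells, -1.75 without replicate 1 and -1.78 without replicate 2 of the CD43+ cells). The other days gave -3.07 and -2.96 (standard error 0.37). BMP6, a ligand that liver endothelium releases to set hepcidin and so iron uptake, was lower in CD43+ cells on days 6 and 9 (-2.86 and -3.69, standard error 0.68). On day 16 it stood at 674, 1030 and 746 in CD43- and at 479, 566 and 312 in CD43+ cells, without overlap but short of the test (adjusted p = 0.266).

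BMP8B went the other way. It stood at 29, 20 and 32 on day 6, at 17, 15 and 22 on day 9, at 22, 68 and 8 on day 12 and at 50, 37 and 30 on day 16 in CD43- cells. In CD43+ cells BMP8B stood at 56, 28 and 60 on day 6, at 166, 188 and 125 on day 9, at 128, 102 and 147 on day 12 and at 156, 187 and 110 on day 16. From day 9 on the CD43+ replicates were all higher, with calls on day 9 (3.08, standard error 0.45, adjusted p = 1.15e-06) and on day 12 (2.37, but 1.65 and not called without replicate 3 of the CD43- cells). Its transcripts share 12.7% of their 50-base stretches with BMP8A, a near copy not analysed here, so reads may be split between them, and it overlaps OXCT2 and PPIE, 2 other genes of the table. BMP3, BMP10, GDF5 and GDF10 were close to the lower end of the scale throughout, at no more than 108 in any sample.

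TGFB1, the main TGF-beta of blood cells and platelets, ran against the other TGF-beta ligands. It stood at 4496, 3701 and 2588 on day 6, at 3410, 3310 and 3838 on day 9, at 2578, 3590 and 4220 on day 12 and at 5534, 6335 and 5684 on day 16 in CD43- cells. In CD43+ cells TGFB1 stood at 6671, 6220 and 7132 on day 6, at 8946, 9202 and 10059 on day 9, at 4496, 7007 and 5684 on day 12 and at 9202, 11476 and 5979 on day 16. The CD43+ replicates lay above the CD43- ones on days 6, 9 and 12 and overlapped with them on day 16, and the log2 fold change of 0.93, 1.42, 0.73 and 0.55 (standard error 0.21, highest adjusted p = 0.0192) passed the p threshold each day but stayed under 4-fold. The other 2 TGF-beta ligands were on the CD43- side. TGFB2 stood at 200, 358 and 178 on day 6, at 478, 350 and 629 on day 9, at 2192, 652 and 902 on day 12 and at 1236, 1493 and 1350 on day 16 in CD43- cells. In CD43+ cells TGFB2 stood at 10, 12 and 10 on day 6, at 6, 6 and 20 on day 9, at 22, 2 and 7 on day 12 and at 12, 18 and 19 on day 16. The groups were far apart, with log2 fold changes of -4.33, -5.55, -7.05 and -6.32 (standard error 0.52, highest adjusted p = 1.31e-07). TGFB3 stood at 68, 85 and 80 on day 6, at 156, 144 and 163 on day 9, at 396, 405 and 374 on day 12 and at 296, 335 and 324 on day 16 in CD43- cells. In CD43+ cells TGFB3 stood at 26, 10 and 14 on day 6, at 13, 24 and 32 on day 9, at 8, 8 and 11 on day 12 and at 24, 20 and 25 on day 16. They did not overlap on any day, and the log2 fold changes were -2.25, -2.78, -5.31 and -3.74 (standard error 0.30, highest adjusted p = 7.83e-07), although on day 6 it was -1.96 and not called without replicate 2 of the CD43+ cells. IFT43, which overlaps TGFB3 in the genome, was also lower in CD43+ cells (90 to 116 against 150 to 219 on day 6), and whether the counting used strand is not given in the sources used here. TGFB1 overlaps HNRNPUL1, TMEM91, CTC-435M10.3 and CCDC97, other genes of the table whose values are not given here. Of the 50-base stretches in TGFB2 transcripts, 25.4% also occur in TGFB2-OT1.

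INHBA, which encodes the subunit of activin A, had the largest standard error of the ligands. It stood at 28, 54 and 10 on day 6, at 348, 22 and 469 on day 9, at 392, 36 and 127 on day 12 and at 169, 202 and 142 on day 16 in CD43- cells. In CD43+ cells INHBA stood at 2, 1 and 6 on day 6, at 8, 22 and 14 on day 9, at 13, 18 and 8 on day 12 and at 16, 24 and 20 on day 16. The lowest CD43- replicate of day 9 equalled the highest CD43+ one, and on the other days the groups were apart, with log2 fold changes of -2.90, -3.42, -3.20 and -3.04 (standard error 0.92, highest adjusted p = 0.00995). The day 6 call ended without replicate 2 of the CD43- cells (-2.36, adjusted p = 0.0599) or without replicate 2 of the CD43+ cells (-2.50, adjusted p = 0.0513). INHBB, the subunit of activin B, was lower in CD43+ cells on day 9 (-2.12) and day 12 (-3.61, standard error 0.46), and on day 9 it missed 4-fold without replicate 2 of the CD43+ cells (-1.80) or of the CD43- cells (-2.0). GDF3, a ligand of pluripotent cells that needs a CFC-family coreceptor, was the one member called higher in CD43+ cells on day 6. It stood at 516, 696 and 576 against 134, 126 and 40 in CD43- cells (log2 fold change 2.74, standard error 0.65, adjusted p = 9.79e-04, limma). GDF11 passed the p threshold on 3 days without reaching 4-fold, being higher in CD43+ cells on day 6 (0.88) and lower on days 12 and 16 (-1.63 and -1.57, standard error 0.14).

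Among the receptors, TGFBR3 had the largest differences. It encodes betaglycan, a coreceptor that presents TGF-beta2 and inhibin to the signalling receptors. It stood at 2876, 1971 and 3813 on day 6, at 4600, 7622 and 3183 on day 9, at 6354, 7476 and 11992 on day 12 and at 8962, 10073 and 10423 on day 16 in CD43- cells. In CD43+ cells TGFBR3 stood at 284, 231 and 447 on day 6, at 24, 82 and 64 on day 9, at 91, 88 and 167 on day 12 and at 71, 58 and 57 on day 16. There was no overlap, the CD43- values were higher on days 12 and 16 than on day 6, and the log2 fold changes were -3.17, -6.55, -6.22 and -7.29 (standard error 0.34, highest adjusted p = 2.18e-08). ACVR2A, a type II receptor for activins, stood at 298, 311 and 253 on day 6, at 392, 478 and 484 on day 9, at 954, 826 and 994 on day 12 and at 825, 707 and 735 on day 16 in CD43- cells. In CD43+ cells ACVR2A stood at 122, 101 and 105 on day 6, at 71, 86 and 84 on day 9, at 92, 122 and 150 on day 12 and at 141, 165 and 96 on day 16. All CD43+ replicates were lower, with log2 fold changes of -1.39, -2.47, -2.94 and -2.52 (standard error 0.17), called from day 9 on (highest adjusted p of those days = 9.50e-13). BMPR1B, a type I BMP receptor, stood at 14, 22 and 8 on day 6, at 30, 8 and 36 on day 9, at 17, 4 and 19 on day 12 and at 6, 3 and 8 on day 16 in CD43- cells and was near the lower end of the scale in both populations. In CD43+ cells BMPR1B stood at 8, 10 and 18 on day 6, at 6, 0 and 4 on day 9, at 2, 0 and 0 on day 12 and at 0, 0 and 0 on day 16. The groups overlapped on day 6 and were apart afterwards, with log2 fold changes of -2.73 on day 9 and -3.08 on day 12 (standard error 0.65), and on day 16 the gene is listed at 0 in every CD43+ replicate. The day 9 value was -1.88 and not called without replicate 2 of the CD43+ cells.

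Of the other receptors, 3 more were called on at least 1 day. ACVRL1, the type I receptor of endothelial cells for BMP9 and BMP10, was lower in CD43+ cells on all days and called on day 9 (-4.18) and day 12 (-2.31, standard error 0.57). Its day 6 CD43- replicates, 2996, 2413 and 1064, had the same order as the endothelial sums of those libraries. BMPR2, the type II BMP receptor, was called on the same days (-2.23 and -2.33, standard error 0.20), and ACVR2B was called on day 12 (-2.02, standard error 0.17), a call that ended without replicate 1 or 2 of the CD43- or replicate 1 or 3 of the CD43+ cells (-1.99 to -1.80). TGFBR2, the type II TGF-beta receptor, stood at 1915, 1248 and 431 on day 6, at 2284, 1256 and 1736 on day 9, at 1902, 1560 and 1772 on day 12 and at 2951, 3680 and 3371 on day 16 in CD43- cells. In CD43+ cells TGFBR2 stood at 647, 498 and 499 on day 6, at 1479, 1498 and 1485 on day 9, at 4188, 2660 and 2584 on day 12 and at 3934, 3512 and 4030 on day 16. It was called on no day between the sorted cells, with overlapping groups on days 6, 9 and 16, and within the CD43+ cells every replicate of days 9, 12 and 16 lay above all day 6 replicates. TGFBR1, BMPR1A, ACVR1, ACVR1B and ACVR1C were called on no day, with log2 fold changes from -1.53 (TGFBR1, day 9) to 1.38 (ACVR1C, day 6).

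**Figure D3:**
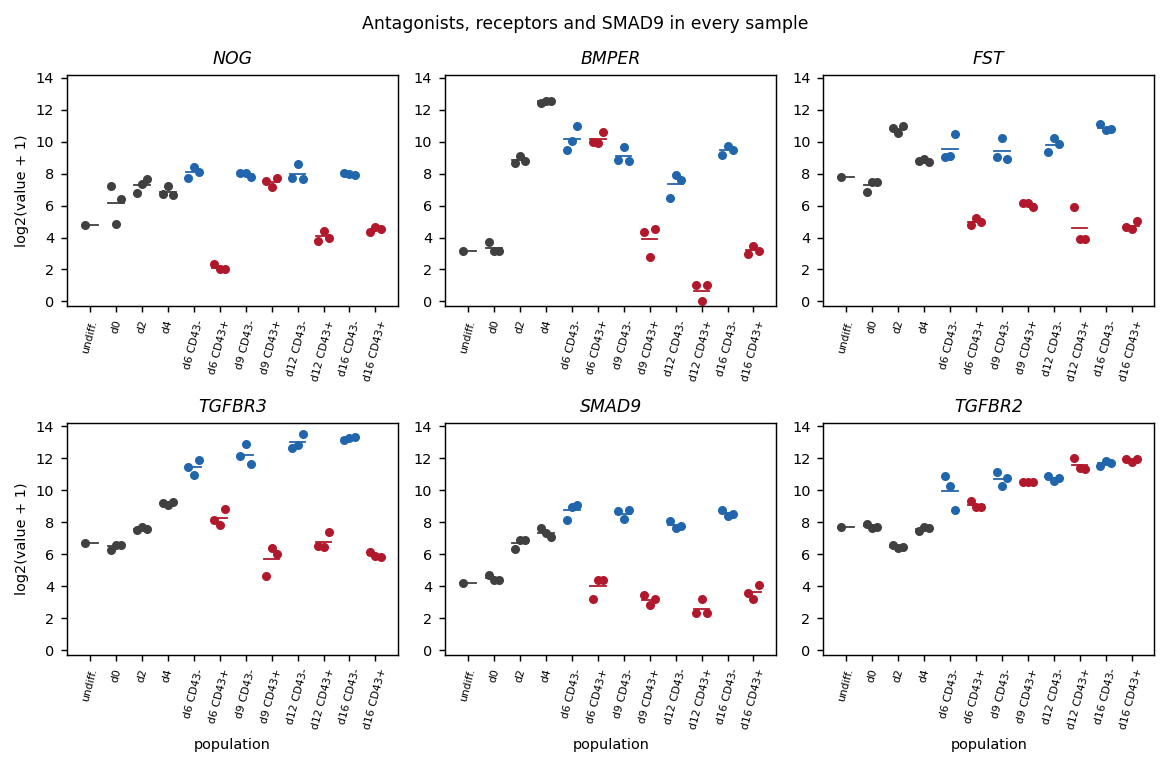
Log2(value + 1) of 3 antagonists or modulators (NOG, BMPER, FST), 2 receptors (TGFBR3, TGFBR2) and SMAD9 in every sample of the 12 populations, with a bar at the mean. Unsorted cells are grey, CD43- cells blue and CD43+ cells red; NOG is at 3 to 4 in day 6 CD43+ cells and at 142 to 210 in day 9 CD43+ cells, and BMPER drops below 25 in CD43+ cells from day 9.

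SMAD9 was called lower in CD43+ cells on all days. It is one of the 3 SMADs that BMP receptors phosphorylate. It stood at 278, 506 and 552 on day 6, at 408, 296 and 428 on day 9, at 271, 198 and 218 on day 12 and at 427, 334 and 367 on day 16 in CD43- cells. In CD43+ cells SMAD9 stood at 8, 20 and 20 on day 6, at 10, 6 and 8 on day 9, at 4, 8 and 4 on day 12 and at 11, 8 and 16 on day 16. No CD43+ replicate passed 20 and no CD43- replicate fell below 198, and the log2 fold changes were -4.76, -5.40, -5.23 and -4.94 (standard error 0.33, highest adjusted p = 7.80e-12). The other 2 BMP-responsive SMADs were called on no day, with log2 fold changes of -1.0, -0.39, -1.52 and -0.40 for SMAD1 (standard error 0.28). For SMAD5 they were -0.17, -0.34, -1.0 and -1.57 (standard error 0.14). SMAD4, the shared partner, differed by -0.22, -0.48, -0.70 and -0.99 (standard error 0.12), and SMAD2 by -0.01, 0.66, 0.37 and 0.03 (standard error 0.10), neither reaching a 2-fold change. SMAD3, which carries the TGF-beta and activin signal with SMAD2, was lower in CD43+ cells each day (-1.45, -1.88, -2.29 and -1.43, standard error 0.15), with no overlap of its groups on any day, and called on day 12. Of the inhibitory SMADs, SMAD7 was called on day 9, at 277, 206 and 276 in CD43+ against 2056, 1748 and 2174 in CD43- cells (-2.98, standard error 0.15), and its groups did not overlap on the other days either (-1.85, -1.69 and -1.70 on days 6, 12 and 16). SMAD6 was called on day 16, at 318, 309 and 274 against 1607, 1709 and 1566 (-2.44, standard error 0.23), while on days 6 and 9 its groups overlapped.

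FST encodes follistatin, which binds activins. It stood at 518, 544 and 1400 on day 6, at 534, 1204 and 476 on day 9, at 654, 1198 and 921 on day 12 and at 2237, 1687 and 1775 on day 16 in CD43- cells. In CD43+ cells FST stood at 26, 36 and 30 on day 6, at 69, 70 and 60 on day 9, at 60, 14 and 14 on day 12 and at 24, 22 and 32 on day 16. The groups did not overlap, with log2 fold changes of -4.55, -3.33, -5.23 and -6.14 (standard error 0.40, highest adjusted p = 6.04e-08). GREM1, which binds BMP2, BMP4 and BMP7, stood at 112, 203 and 22 on day 6, at 130, 41 and 150 on day 9, at 436, 72 and 394 on day 12 and at 32, 56 and 24 on day 16 in CD43- cells. In CD43+ cells GREM1 stood at 6, 10 and 1 on day 6, at 6, 0 and 5 on day 9, at 14, 6 and 20 on day 12 and at 0, 0 and 6 on day 16. CD43+ replicates were below all CD43- ones each day, the replicates of both spread widely, and the log2 fold changes were -3.92, -4.76, -4.16 and -4.24 (standard error 0.93, highest adjusted p = 9.92e-04).

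NOG, the gene of noggin, an antagonist of BMP2, BMP4 and BMP7, gave a pattern of its own over the days. It stood at 209, 342 and 270 on day 6, at 258, 264 and 221 on day 9, at 213, 381 and 203 on day 12 and at 260, 248 and 240 on day 16 in CD43- cells. In CD43+ cells NOG stood at 4, 3 and 3 on day 6, at 188, 142 and 210 on day 9, at 13, 20 and 15 on day 12 and at 19, 24 and 22 on day 16. It was close to 0 in the day 6 CD43+ cells, just under the CD43- replicates on day 9 and low again afterwards, with log2 fold changes of -5.97, -0.47, -3.93 and -3.47 (standard error 0.37) and adjusted p = 8.88e-13, 0.265, 3.96e-10 and 4.38e-09. The change of the CD43 difference between days was itself tested as an interaction. From day 6 to day 9 it called 12 of the 57 pathway genes (21.1%, against 7.39% of all genes). It called 6 from day 9 to day 12 (10.5%, near the 9.0% of all genes) and 3 from day 12 to day 16 (5.26%, near 5.03%). For NOG the term of day 6 to day 9 was 5.49 (standard error 0.52, adjusted p = 6.14e-08), and that from day 9 to day 12 gave -3.46 (adjusted p = 1.48e-05). At day 4, before the sort, NOG stood at 106, 146 and 102.

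BMPER, which can both block and aid BMP4 at endothelial cells, overlapped between the sorted cells on day 6 only. It stood at 702, 1068 and 2054 on day 6, at 459, 810 and 434 on day 9, at 88, 243 and 194 on day 12 and at 576, 860 and 725 on day 16 in CD43- cells. In CD43+ cells BMPER stood at 992, 970 and 1550 on day 6, at 19, 6 and 22 on day 9, at 1, 0 and 1 on day 12 and at 7, 10 and 8 on day 16. From day 9 the groups were far apart, and the log2 fold changes were -0.02, -5.21, -6.67 and -6.27 (standard error 0.41, adjusted p on day 6 = 0.992, highest of the later days = 1.71e-11). CHRD, the gene of chordin, stood at 182, 226 and 348 on day 6, at 155, 130 and 208 on day 9, at 248, 83 and 146 on day 12 and at 107, 44 and 110 on day 16 in CD43- cells. In CD43+ cells CHRD stood at 92, 133 and 197 on day 6, at 28, 16 and 13 on day 9, at 56, 8 and 22 on day 12 and at 23, 16 and 13 on day 16. It overlapped on day 6 and was lower in CD43+ cells afterwards (-0.85, -3.09, -2.68 and -2.19, standard error 0.51), the day 16 call ending without replicate 1 (-1.98) or replicate 3 (-1.96) of the CD43- cells. BMP1 is not a ligand but a protease that cleaves chordin and procollagen. It stood at 1724, 1762 and 1514 on day 6, at 1780, 2218 and 1916 on day 9, at 2058, 2106 and 2275 on day 12 and at 1983, 2033 and 2084 on day 16 in CD43- cells. In CD43+ cells BMP1 stood at 882, 862 and 986 on day 6, at 414, 388 and 408 on day 9, at 234, 348 and 350 on day 12 and at 274, 211 and 247 on day 16. There was no overlap, and with tight replicates the log2 fold changes were -0.87, -2.28, -2.81 and -3.06 (standard error 0.14), called from day 9 on (highest adjusted p of those days = 1.86e-13).

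**Figure D4:**
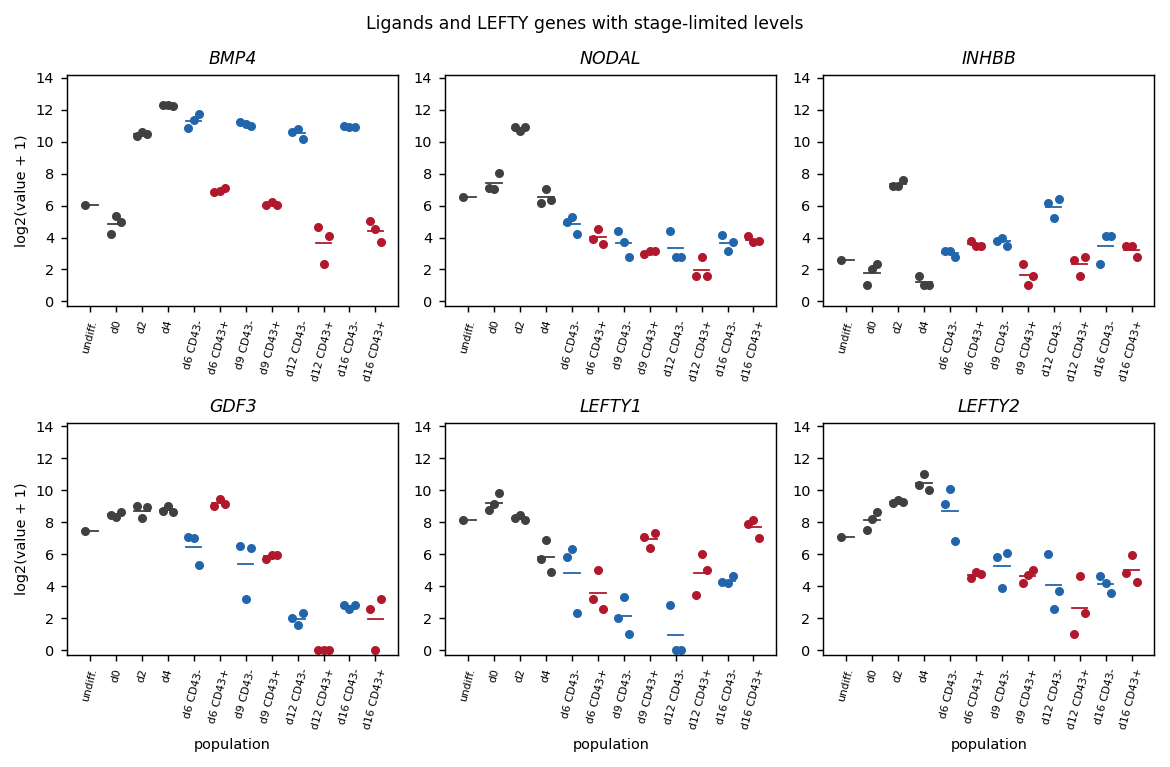
Log2(value + 1) of BMP4, NODAL, INHBB, GDF3, LEFTY1 and LEFTY2 in every sample of the 12 populations, with a bar at the mean; unsorted cells are grey, CD43- cells blue and CD43+ cells red. NODAL and INHBB peak on day 2, BMP4 stays high in CD43- cells, and LEFTY1 is higher in CD43+ than in CD43- cells from day 9.

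LEFTY1 and LEFTY2 encode antagonists of nodal and lie side by side on chromosome 1. LEFTY1 stood at 57, 80 and 4 on day 6, at 3, 9 and 1 on day 9, at 6, 0 and 0 on day 12 and at 18, 17 and 24 on day 16 in CD43- cells. In CD43+ cells LEFTY1 stood at 8, 32 and 5 on day 6, at 134, 82 and 163 on day 9, at 10, 64 and 32 on day 12 and at 236, 280 and 127 on day 16. The groups overlapped on day 6, and on the later days every CD43+ replicate was higher, with log2 fold changes of -1.24, 4.83, 3.91 and 3.32 (standard error 0.86) and adjusted p = 0.239, 2.00e-05, 2.42e-04 and 0.00132. Of the 50-base stretches in its transcripts, 46.8% also occur in other annotated genes, chiefly AL117348.2 and LEFTY2. RP4-559A3.7, which overlaps LEFTY1 in the table, stood at 22, 58 and 50 in day 9, 0, 48 and 0 in day 12 and 62, 152 and 68 in day 16 CD43+ cells and at most 16 in any CD43- sample, so which of the 2 transcripts the reads came from is uncertain. LEFTY2 was called lower in CD43+ cells on day 6, at 22, 29 and 26 against 570, 1081 and 114 (-3.97, standard error 0.81, adjusted p = 1.86e-04), and its groups overlapped on the later days.

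The ID genes encode dominant-negative helix-loop-helix proteins that hold cells back from differentiation. The 250 bases before the RefSeq starts of ID1 and ID4 (build GRCh38.p14) are shown because both genes rose by day 2 and were called between the sorted cells. Capitals mark the letters CAGAC, a sequence that SMAD proteins can bind, found on either strand. RefSeq starts were at hand for 46 of the 57 genes, and the windows of ID2 and ID3 run through annotated exons and are not shown.
ID1, chr20:31605039-31605288, plus strand: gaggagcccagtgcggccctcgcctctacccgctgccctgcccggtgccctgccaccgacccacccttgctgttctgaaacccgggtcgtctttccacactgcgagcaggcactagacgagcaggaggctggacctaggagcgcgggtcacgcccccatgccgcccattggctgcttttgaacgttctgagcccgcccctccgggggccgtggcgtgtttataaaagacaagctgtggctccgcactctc
ID4, chr6:19837120-19837369, plus strand: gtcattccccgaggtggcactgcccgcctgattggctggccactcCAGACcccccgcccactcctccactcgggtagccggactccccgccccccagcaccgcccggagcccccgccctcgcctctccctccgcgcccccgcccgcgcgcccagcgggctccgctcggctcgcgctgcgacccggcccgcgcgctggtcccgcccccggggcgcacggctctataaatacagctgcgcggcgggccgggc
CAGAC or its reverse complement GTCTG occurred once each in the windows of ID3 and ID4 and in neither that of ID1 nor that of ID2, whereas 38.0% of 35116 start sites in the table hold it. The GC-rich letters GGCGCC, described in BMP-responsive promoters, were in none of the 4 windows and in 16.4% of all, and the palindrome GTCTAGAC was in none of the 4 and in 0.2% of all. Neither motif holds the other, and a match or its absence in so short a stretch says nothing about binding.

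**Figure D5:**
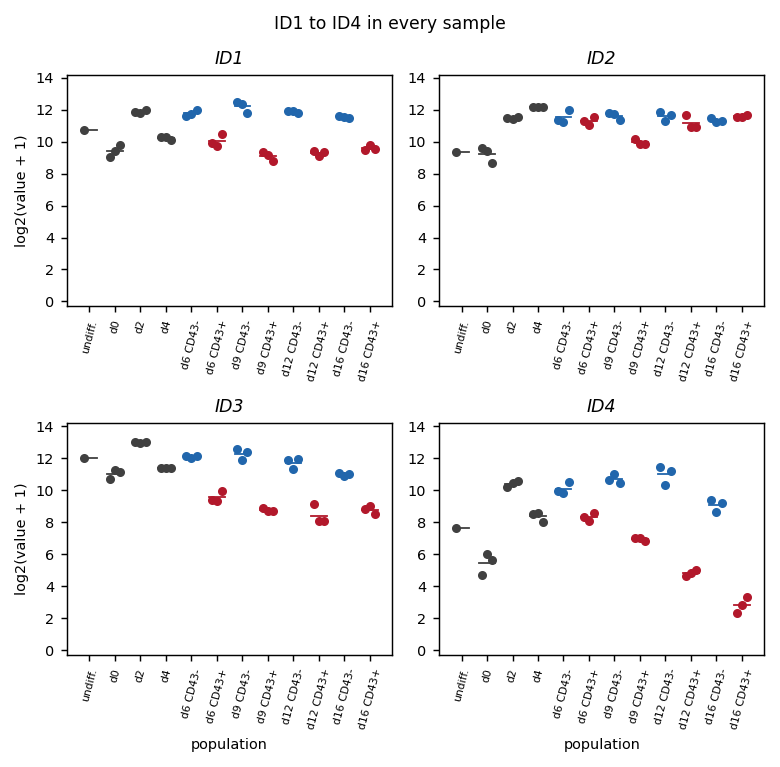
Log2(value + 1) of ID1, ID2, ID3 and ID4 in every sample of the 12 populations, with a bar at the mean; unsorted cells are grey, CD43- cells blue and CD43+ cells red. All 4 genes are higher on day 2 than on day 0, and the red points fall away from the blue ones for ID1, ID3 and most of all ID4, not for ID2 on day 16.

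From day 0 to day 2 all 4 ID genes passed the p threshold upwards. ID1 went from 534, 692 and 898 in the EBs to 3680, 3538 and 3980 on day 2 and 1226, 1272 and 1079 on day 4. ID3 went from 1692, 2477 and 2237 to 8504, 7907 and 8272 and then 2650, 2677 and 2677. Every day 2 replicate of both genes was above all those of days 0 and 4, with log2 fold changes from day 0 to day 2 of 2.43 (standard error 0.19) and 1.96 (standard error 0.22), the latter just under 4-fold and so not called. ID4 went from 25, 65 and 48 to 1192, 1377 and 1550 and then 368, 387 and 258 (4.96, then -2.03, standard error 0.30). ID2 went from 780, 671 and 410 to 2850, 2777 and 2960 and 4546, 4662 and 4511 (2.25, 1.98 without replicate 3 of the EBs, then 0.68 with adjusted p = 0.0139, standard error 0.21), so that it alone was highest on day 4.

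In the sorted cells the 4 ID genes parted. ID3 stood at 4543, 4114 and 4508 on day 6, at 6068, 3895 and 5312 on day 9, at 3754, 2616 and 3984 on day 12 and at 2204, 1904 and 2116 on day 16 in CD43- cells. In CD43+ cells ID3 stood at 672, 652 and 1008 on day 6, at 480, 426 and 415 on day 9, at 557, 264 and 264 on day 12 and at 463, 510 and 361 on day 16. It was lower in CD43+ cells every day, with log2 fold changes of -2.52, -3.51, -3.32 and -2.23 (standard error 0.22, highest adjusted p = 9.46e-10). ID1 stood at 3059, 3419 and 4072 on day 6, at 5632, 5308 and 3482 on day 9, at 3890, 3813 and 3567 on day 12 and at 3080, 2974 and 2804 on day 16 in CD43- cells. In CD43+ cells ID1 stood at 947, 851 and 1448 on day 6, at 640, 568 and 448 on day 9, at 669, 554 and 641 on day 12 and at 702, 880 and 742 on day 16. The groups were apart each day, with log2 fold changes of -1.73, -3.10, -2.60 and -1.93 (standard error 0.19, highest adjusted p = 1.90e-08), past 4-fold on days 9 and 12. ID4 stood at 996, 894 and 1497 on day 6, at 1614, 2095 and 1384 on day 9, at 2852, 1307 and 2360 on day 12 and at 664, 402 and 578 on day 16 in CD43- cells. In CD43+ cells ID4 stood at 322, 275 and 386 on day 6, at 126, 128 and 112 on day 9, at 24, 28 and 32 on day 12 and at 4, 6 and 9 on day 16. Its difference widened from -1.76 on day 6 to -3.77, -6.16 and -6.25 (standard error 0.30, highest adjusted p = 2.42e-05), with interaction terms of -2.01 from day 6 to day 9 (adjusted p = 0.00138, but short of 4-fold, at -1.95 to -1.85, without any of 5 libraries, replicates 1 or 2 of day 6 CD43-, 3 of day 6 CD43+, 2 of day 9 CD43- and 3 of day 9 CD43+ cells) and -2.39 from day 9 to day 12 (adjusted p = 1.21e-04). ID2 stood at 2566, 2401 and 4118 on day 6, at 3520, 3402 and 2653 on day 9, at 3758, 2510 and 3192 on day 12 and at 2898, 2362 and 2488 on day 16 in CD43- cells. In CD43+ cells ID2 stood at 2543, 2110 and 2920 on day 6, at 1130, 918 and 926 on day 9, at 3228, 1892 and 1924 on day 12 and at 3000, 2960 and 3282 on day 16. Only on day 9 did it pass the p threshold, being lower in CD43+ cells (-1.68, standard error 0.21, adjusted p = 1.24e-07), and on day 16 its CD43+ replicates were slightly above the CD43- ones (0.26, adjusted p = 0.290).

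By the methods, EB attachment and added BMP4 and VEGF all fell between day 0 and day 2, so their parts cannot be told apart from each other or from time. The step from day 0 EBs to day 2 cells saw 17 of the 57 pathway genes called (29.8%, against 7.88% of all genes), all of them higher (against 4.40% of all genes higher and 3.48% lower), while at an unadjusted p under 0.05 in limma 32 were higher and 6 lower. The largest rise was that of BMP4, from 18, 40 and 30 to 1332, 1534 and 1455 (5.64, standard error 0.37, adjusted p = 2.06e-12). INHBB went from 1, 3 and 4 to 147, 147 and 192 (5.56, standard error 0.46, adjusted p = 2.73e-10). NODAL, the ligand of the primitive streak, went from 136, 133 and 265 to 1902, 1639 and 1949 (3.43, standard error 0.45, adjusted p = 8.48e-07). None of these day 2 replicates overlapped with a day 0 one, as held for 53.8% of all genes tested. The other ligands called were BMP2 (4.95), BMP5 (3.60), GDF6 (3.38) and TGFB3 (2.47). The modulator BMPER (5.52) rose beside them, as did the antagonists GREM1 (5.38), FST (3.50) and CHRD (2.34, 1.95 and not called without replicate 1 of the EBs). So did the inhibitory SMAD6 (2.72) and SMAD9 (2.20). With a pseudocount of 10, BMP5, TGFB3, ACVRL1 and SMAD9 were no longer called. The last called was ACVRL1 (2.58, 1.42 and not called without replicate 2 of the EBs, in which it is listed at 0), with ID1, ID2 and ID4. The single undifferentiated sample, which has no replicate and no test, stood at 65 for BMP4, at 90 for NODAL, at 276 for LEFTY1 and at 4152 for ID3.

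From day 2 to day 4, 14 genes were called (24.6%, against 9.50% of all genes), 8 higher and 6 lower (against 4.97% and 4.53%). NODAL fell to 71, 129 and 82 (-4.31, adjusted p = 1.63e-08) and INHBB to 2, 1 and 1 (-6.14, adjusted p = 3.30e-11), at or under the highest day 0 replicate of each gene. BMP4 went on to 4938, 4938 and 4758, its highest values of the series, a step that passed the p threshold but not 4-fold (1.76, adjusted p = 3.89e-04). BMP5 went from 25, 32 and 28 to 994, 656 and 936 (4.86, standard error 0.59, adjusted p = 2.39e-07). ACVRL1 went from 54, 25 and 18 to 480, 579 and 502 (4.11, standard error 0.57, adjusted p = 2.06e-06). BMPER reached its highest values of the series on day 4, at 5550, 6064 and 6000, after 412, 544 and 448 on day 2. The other rises were those of TGFB2, BMP6, BMP1, BMP10 and GDF7, and the other falls those of INHBE, BMP3, LEFTY1 and ID4. With a pseudocount of 10 the calls of BMP3 (-0.83), BMP10 (0.44, adjusted p = 0.0948) and GDF7 (1.70) were lost. The calls of BMP10 (1.79), GDF7 (1.91 and 1.95), ID4 (-1.94 and -1.85) and LEFTY1 (-2.53 to -2.01, adjusted p = 0.0515 to 0.120) ended when certain libraries were left out, namely replicate 3 of day 4 for each, replicate 1 of day 2 for GDF7 and LEFTY1, replicate 3 of day 2 for ID4 and LEFTY1, and replicate 2 of day 2 or replicate 1 of day 4 for LEFTY1. The mesenchymal sum rose from 10067 to 12591 on day 2 to 135399 to 195406 on day 4, and its part in these changes was not tested.

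The day 4 cells were unsorted and the day 6 cells sorted, so the day and the sort cannot be told apart. Day 6 CD43+ cells had 17 genes called against day 4 (29.8%, against 14.5% of all genes), with 3 higher and 14 lower (against 6.80% and 7.73%). Day 6 CD43- cells had 8 (14.0%, against 7.71%), with 6 higher and 2 lower (against 4.94% and 2.77%). In CD43+ cells BMP5 fell from 994, 656 and 936 to 6, 14 and 30 (-5.84, adjusted p = 7.08e-09). LEFTY2 fell from 1303, 2040 and 1022 to 22, 29 and 26 (-5.72, standard error 0.81, adjusted p = 1.44e-06). GDF15, a stress-induced ligand, rose from 28, 28 and 46 to 282, 271 and 438 (3.25, standard error 0.36, adjusted p = 3.87e-08), and INHBB from 2, 1 and 1 to 13, 10 and 10 (2.38), a rise at the lower end of the scale. In CD43- cells GDF7 rose from 99, 78 and 108 to 470, 446 and 896 (2.59, standard error 0.55, adjusted p = 4.05e-04). TGFBR2 rose from 174, 211 and 196 to 1915, 1248 and 431 (2.38, standard error 0.30, 1.92 and not called without replicate 1 of the day 6 CD43- cells). BMPER fell to 702, 1068 and 2054 (-2.34, -1.99 and not called without replicate 1 of the same cells), and GDF3 fell from 408, 527 and 396 to 134, 126 and 40 (-2.31, -1.75 and not called without replicate 3).

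Changes of genes with few tags depended on the pseudocount, and with 10 in place of 1 the calls of the steps from day 4 on described here that were lost are those of INHBB (day 6 CD43+ against day 4 cells), of BMP10, GREM1 and ID4 (the last CD43+ step), and of INHBB on both later CD43- steps and LEFTY1 on the last of them. With a pseudocount of 0.1 the calls of LEFTY1 from day 2 to day 4, GDF3 from day 4 to day 6 CD43- cells and GREM1 on the last CD43- step were lost. When only the compared populations were fitted, those of ACVRL1 from day 0 to day 2 (adjusted p = 0.117), GREM1 on the last CD43+ step (adjusted p = 0.0710) and LEFTY2 on the first CD43- step (adjusted p = 0.240) were lost.

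Within the CD43+ cells, 8 genes were called from day 6 to day 9 (14.0%, against 7.53% of all genes), 2 higher and 6 lower (against 3.56% and 3.97%). BMPER fell most (-6.28, adjusted p = 1.37e-11), with GDF3, from 516, 696 and 576 to 52, 60 and 62 (-3.33, adjusted p = 2.53e-04). NOG (5.37, adjusted p = 2.90e-11) and LEFTY1 (3.34, adjusted p = 0.00378) rose. From day 9 to day 12, 10 genes were called (17.5%, near the 15.0% of all genes), all of them lower (against 6.54% lower and 8.45% higher), while at an unadjusted p under 0.05 in limma 28 were lower and 8 higher. GDF3 is listed at 0 in every day 12 CD43+ replicate. GDF1 fell from 96, 118 and 88 to 8, 15 and 1 (-3.93, standard error 0.45, adjusted p = 4.30e-08), but every 50-base stretch of its transcripts also lies in CERS1, with which it shares a messenger RNA, and CERS1 went from 290, 358 and 312 to 46, 124 and 148. From day 12 to day 16, where the sort gate changed with the day, 9 genes were called (15.8%, against 9.05%), 7 higher and 2 lower (against 3.79% and 5.26%). BMP6 rose from 12, 76 and 20 to 479, 566 and 312 (3.99, adjusted p = 4.03e-05). BMP10 went from 1, 4 and 0 to 22, 19 and 12 (3.07, standard error 0.48). GREM1 (-2.77) and ID4 (-2.03) fell, both calls ending without replicate 3 of the day 12 CD43+ cells (-2.42 and -1.93) or replicate 1 of the day 16 CD43+ cells (-2.30 and -1.78), and that of GREM1 also without replicate 2 of the latter (-2.30). The macrophage sum of 5 genes was 2617 to 3055 on day 9, 16998 to 70928 on day 12 and 50715 to 56102 on day 16 in CD43+ cells, and the erythroid sum of 5 genes was 116564 to 197296, 5286 to 13585 and 4602 to 10085, and the part of these shifts in the changes was not tested.

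Within the CD43- cells fewer genes moved at first. From day 6 to day 9 only LEFTY2 was called (1 of 57, or 1.75%, against 1.75% of all genes, and 0.657% lower with 1.10% higher), from 570, 1081 and 114 to 56, 14 and 68 (-3.41, adjusted p = 0.00993), a call that ended without replicate 2 of either day (-2.72 each). From day 9 to day 12, 3 were called (5.26%, against 7.33%), 1 higher and 2 lower (against 4.52% and 2.80%). BMP6 fell from 1640, 204 and 1262 to 116, 48 and 60 (-3.42, adjusted p = 3.40e-04), GDF3 from 90, 8 and 84 to 3, 2 and 4 (-3.39, adjusted p = 2.16e-04), and INHBB rose to 72, 36 and 84 (2.18, 1.94 and not called without replicate 3 of day 12). The calls of BMP6 and GDF3 were lost when only the compared populations were fitted (adjusted p = 0.0642 and 0.0833, with the same fold changes). From day 12 to day 16, 10 were called (17.5%, against 10.4%), 7 higher and 3 lower (against 4.46% and 5.97%). The day 16 cells were also sorted as CD45-, so day and gate cannot be told apart in this step. PTPRC stood at 4, 197 and 371 in the CD43- cells of day 12 and at 18, 42 and 22 in those of day 16. BMP6 rose again to 674, 1030 and 746 (3.51, adjusted p = 1.58e-04). LEFTY1 went from 6, 0 and 0 to 18, 17 and 24 (3.42, adjusted p = 0.00202). INHBB fell to 4, 16 and 16 (-2.44, -1.85 and not called without replicate 1 of day 16), and GREM1 to 32, 56 and 24 (-2.69), a call that ended without replicate 1 or 3 of either day (-2.62 to -2.23).

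Of the genes of these pathways that the name rule did not take in, 44 of 47 listed ones were in the table and 43 were tested. Between CD43+ and CD43- cells, 11 were called on day 6 (9 lower), 17 on day 9 (15 lower), 24 on day 12 (23 lower) and 18 on day 16 (17 lower), which is 25.6%, 39.5%, 55.8% and 41.9% of them beside the shares of all genes given above. CTGF, a matrix-associated target of TGF-beta, was among the largest differences on each day (-4.14, -6.08, -6.97 and -6.54, standard error 0.38). It stood at 6791, 8780 and 8656 in day 16 CD43- and 98, 138 and 46 in day 16 CD43+ cells. CFC1, a coreceptor of nodal and GDF3, differed on day 6 (-4.90), at 2, 4 and 6 against 70, 117 and 336. TLL1, a protease related to BMP1, differed on day 9 (-6.78) and day 12 (-6.82), at 0, 0 and 9 against 434, 83 and 362 on day 9. MSX1, a homeobox gene that BMP4 induces in many tissues, differed on day 16 (-6.15), at 22, 28 and 8 against 1296, 1362 and 1204. All of these were lower in CD43+ cells without overlap. NRROS, which holds latent TGF-beta1 on myeloid cells and was chosen after its values were seen, was higher in CD43+ cells on all days (2.24, 3.47, 3.68 and 3.15), at 2693, 2619 and 2693 against 246, 332 and 330 on day 16.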

How the data were processed

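The series holds RNA-seq of 34 H1-hESC samples. The authors aligned reads with bowtie2, quantified them with RSEM on Ensembl v81 and normalized them for GC content with EDASeq v2.4.1, per the methods (the submitters' processing notes list STAR 2.7 beside Bowtie2 and RSEM, with hg38). The deposited values are whole numbers used as a score, since their sorted values are identical in all 34 samples (sum 17856940, median 197). The deposited GC percent of each gene was not used in a test. Differences were fitted with limma 3.58.1 in R 4.3.3 (lmFit, then eBayes with a mean-variance trend, two-sided) on log2(value + 1) over the 33 replicated samples in 1 fit, for genes of at least 10 in at least 3 samples, with Benjamini-Hochberg adjustment over 19788 genes, and checked on simulated data.

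Values per sample are given for members called in at least 3 of the 4 CD43 comparisons, the 2 largest rises and falls among those called in each other comparison, and the ID genes. Other pathway genes are named by the 2 largest differences per CD43 comparison. Members and lists were chosen with earlier results of these data known. Correlations of same-numbered deviations between the sorted populations were 0.109 to 0.199 on day 6 and -0.015 to 0.108 on the other days. Replicates were matched by the labels' numbers alone. Those with unlike numbers were not compared, so whether the numbers pair the samples was not tested. The labels do not say which of a pair of sequencing companies ran which sample, so no within-batch value can be given. Promoter windows are those of RefSeq starts. BMP8A, BMP15, GDF2 and INHBC were not analysed here, and the values of 1 of the 57 genes are not reported here, though counts over all 57 hold it. Alternatives were another pseudocount, filter, fold threshold and scaling, fits of only the populations compared, a replicate block and leaving out each replicate.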

Additional observations from a re-analysis of the deposited data

Results flagged for a closer look

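The results listed here are those in which the difference between CD43+ and CD43- cells itself changed from one sorting day to the next, as tested with an interaction term in limma. Values are changes of the log2 fold change, with the Benjamini-Hochberg adjusted p over all genes tested. From day 6 to day 9, 12 of the 57 genes were called (21.1%, against 7.39% of all genes). The shares of the later steps, given below, were near those of all genes. How all genes split by direction is not given here for these terms. From day 6 to day 9 the difference moved upwards for NOG (5.49, standard error 0.52, adjusted p = 6.14e-08), LEFTY1 (6.07, standard error 1.21, adjusted p = 7.52e-04), LEFTY2 (3.32, adjusted p = 0.0419) and BMP8B (2.32, adjusted p = 0.0108). It moved downwards for BMPER (-5.19, standard error 0.57, adjusted p = 5.22e-07), TGFBR3 (-3.38, standard error 0.49, adjusted p = 1.67e-05), GDF10 (-4.34, adjusted p = 0.00165), GDF7 (-3.15, adjusted p = 0.00502), INHBB (-2.65, adjusted p = 0.00485), ACVRL1 (-2.57, adjusted p = 0.0268), CHRD (-2.24, adjusted p = 0.0305) and ID4 (-2.01, adjusted p = 0.00138).

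From day 9 to day 12, 6 genes were called (10.5%, near the 9.0% of all genes). These changes were downwards, for NOG (-3.46, adjusted p = 1.48e-05), TGFB3 (-2.53, adjusted p = 6.76e-05), ID4 (-2.39, adjusted p = 1.21e-04), GDF1 (-2.63, adjusted p = 0.00270), GDF6 (-2.03, adjusted p = 0.00514) and GDF3 (-2.49, adjusted p = 0.0446). From day 12 to day 16, 3 genes were called (5.26%, near the 5.03% of all genes). The sort gate changed at this step too, so day and gate cannot be told apart in these terms. The difference moved upwards for INHBB (3.35, adjusted p = 7.73e-04) and BMP10 (2.51, adjusted p = 0.0111) and downwards for BMP3 (-2.57, adjusted p = 0.0459). Of these 21 calls, 11 held when any single library was left out. The 10 others were those of BMP8B, ACVRL1, CHRD, LEFTY2 and ID4 from day 6 to day 9, GDF1, GDF3 and GDF6 from day 9 to day 12, and BMP3 and BMP10 from day 12 to day 16. The call of LEFTY2 missed the threshold with the replicate block (3.32, adjusted p = 0.0513), and so did that of BMP3 (-2.57, adjusted p = 0.0575). With a pseudocount of 10, 9 of the 21 calls were lost, namely those of INHBB (-1.16), BMP8B, CHRD and ID4 from day 6 to day 9, GDF1, GDF3 and GDF6 from day 9 to day 12, and BMP3 and BMP10 from day 12 to day 16. Fits of only the compared populations lost 7, those of GDF7 (-3.15, adjusted p = 0.0776) and LEFTY2 from day 6 to day 9, GDF1, GDF3 and GDF6 from day 9 to day 12, and BMP3 and BMP10 from day 12 to day 16. INHBB from day 6 to day 9 and GDF7 are among the 11 that held with any library left out.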

How the results depend on the processing

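No value changed direction past its threshold under the alternatives run. Of 106 calls between CD43+ and CD43- cells, 89 were kept under every alternative at the 4-fold threshold, and that of GDF10 on day 9 under each in which it was tested, since a minimum of 100 leaves it out. A fold threshold of 2 gave 29 members called between sorted cells on day 6, 27 from day 0 to day 2, 26 from day 2 to day 4, 28 (CD43+) and 24 (CD43-) from day 4 to day 6, 19, 27 and 18 on the later steps of CD43+ cells, 11 and 16 on the last steps of CD43- cells, and 21, 13 and 7 changes of the CD43 difference. A pseudocount of 10 gave 5 and 2 on the last steps of CD43+ cells, 3 on both the first and the last step of CD43- cells, and 1 changed CD43 difference between the last days. A minimum of 100 gave 2 and 6 on those CD43- steps and 1 on that change. Median-of-ratios scaling gave 2 on the first CD43- step. Fits of only the populations compared gave 0 (limma; 18 members had an unadjusted p under 0.05 in the fit of all populations) and 1 on the first CD43- steps, and 3 and 1 changed CD43 differences on the later steps. Fewer samples enter those fits. The cause of the other shifts was not tested. The shares of all genes under these alternatives are not given here. The counts therefore show only how the calls depend on the setting and are no result about the pathway genes.

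The replicate block left the counts between sorted cells at 19, 29, 32 and 26, gave 2 on the first CD43- step, and lost INHBA between day 4 and day 6 CD43- cells (2.24, adjusted p = 0.0565), LEFTY2 and BMP3 as given above, and no other member call. Whether the shared numbers pair the samples was not tested.

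Leaving out 1 replicate gave 18 to 21, 28 to 30, 30 to 35 and 24 to 27 members between sorted cells, 16 to 20, 10 to 15, 14 to 18 and 5 to 9 on the steps up to day 6, 7 to 10, 8 to 11 and 5 to 11 within CD43+ cells, 1 to 3, 2 to 4 and 6 to 13 within CD43- cells, and 8 to 12, 5 to 9 and 2 to 4 changes of the CD43 difference. The libraries that moved a count by more than 1.5 times were replicate 1 of day 6 CD43- cells (5 in place of 8 from day 4), replicate 3 of day 12 CD43+ cells (5 in place of 9 to day 16), replicate 1 of day 12 CD43- cells (6 in place of 10 to day 16), and, on the first CD43- step, replicate 3 of day 6 (2 in place of 1) and replicate 2 of day 9 (3 in place of 1). Depth is unknown, so no counting error can be given for low values.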
